A study of Homo sapiens with 4 samples.

Results

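The 43 genes described here encode the machinery that copies DNA in S phase, and they were taken by symbol from the 33538 genes listed in each of 4 single-cell RNA sequencing (scRNA-seq) libraries. The list was given by gene name. HCEC 1CT is a line of human colonic epithelial cells immortalised with TERT and CDK4, so every library carries both transgenes. The cells were transduced with an shRNA against APC (shAPC) or with a scrambled shRNA (shScr), grown under puromycin, and harvested at day 3 or day 7. The 4 groups are therefore the pair of shRNAs at each of the 2 days, each with 1 library, and the question each pair addresses is how cells differ early after APC is lowered. The virus is retroviral in the labels and lentiviral in the methods, and the 10x Genomics kit is v2 in the labels and V3 in the methods.

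Replication begins when the origin recognition complex, CDC6 and CDT1 load the MCM helicase onto DNA in G1, and copying starts when CDC45, the GINS complex and MCM10 switch that helicase on. Polymerases, the PCNA clamp and its RFC loader then copy both strands, RPA covers the unwound strand, FEN1 and LIG1 seal the Okazaki fragments, and a set of enzymes supplies the nucleotides. Most of these genes are known to be transcribed from late G1 into S phase under E2F factors, which makes their transcripts a common measure of how many cells in a culture are cycling.

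The kept cells numbered 1116 (shScr) and 788 (shAPC) at day 3 and 2600 and 1478 at day 7. In the same order they held 39797418, 34944674, 31230868 and 28451455 UMIs (unique molecular identifiers, each standing for 1 captured transcript). Depth differed greatly, with a median of 35109, 49685.5, 1330 and 21029.5 UMIs per kept cell in the same order, so that shScr day 7 stood apart as the shallowest library. The filters, mainly the limit on mitochondrial UMIs, removed 51.3% of the barcodes of shAPC day 7 against 24.1% to 28.8% of the others. Between 2 and 25 cell barcodes were shared by any pair of libraries, the most between libraries of the same day. The counting software also varied with the shRNA, since the Cell Ranger release in the file headers was 3.0.2 where the shRNA was scrambled and 3.0.0 where it targeted APC, and release and shRNA cannot be told apart. The target of the shRNA, APC, was at 16.1 and 5.52 CPM (UMIs of a gene scaled to a total of 1e+06 per library) in shScr and shAPC at day 3 and at 19.1 and 6.61 CPM at day 7. The label of colonic epithelium was carried by few markers. KRT8, KRT18, KRT19 and CLDN7 were detected at 2.34 to 19.4 CPM, whereas EPCAM, CDH1, KRT20, CDX2 and VIL1 had 0 to 2 UMIs in each library, and the mesenchymal marker VIM lay between 4010 and 5303 CPM. Of the immune and endothelial markers, PTPRC, CD3E, PECAM1 and VWF had 0 to 4 UMIs per library, while CD68, a lysosomal gene, was at 17.4 to 29.6 CPM. No cell type that should lack the replication genes was identified in these cultures, so the contribution of free RNA to their counts was not measured.

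The promoters are shown first because many of these genes carry the same short element close to their start. RefSeq windows (GRCh38.p14, 250 bases before to 50 after each gene's start) were found for 37 of the 43 genes, and 20 of them (54.1%) held an E2F-type site, written TTTGGCGC, TTTCCCGC, TTTGCCGC or TTTCGCGC on either strand. The same letters stood in only 3 of the 29 windows found for a list of 35 further replication genes (10.3%). They stood in 908 of all 27305 windows (3.33%) and in 3 of 22 windows of a list of mitotic genes (13.6%). The CHR element, TTTGAA on either strand, showed the reverse, with 18 of the 22 mitotic windows (81.8%), 1 of the 37 replication windows (2.70%, RRM1) and 15.4% of all windows. All 4 MCM windows at hand held an E2F-type site, and in MCM2 and MCM6 sites overlapped on both strands. The sites of 10 genes from different steps of replication follow, each as 30 bases of the gene's strand with the site in capitals, to show how the same core recurs.
MCM3, the helicase, chr6:52284728-52284757, minus strand: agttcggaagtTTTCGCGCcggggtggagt
MCM6, the helicase, chr2:135876515-135876544, minus strand: cattggtcaggTTTGGCGCgaaatctccag
MCM7, the helicase, chr7:100101388-100101417, minus strand: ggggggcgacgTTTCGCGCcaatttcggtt
CDT1, origin licensing, chr16:88803743-88803772, plus strand: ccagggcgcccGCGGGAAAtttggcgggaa
GINS2, helicase activation, chr16:85688967-85688996, minus strand: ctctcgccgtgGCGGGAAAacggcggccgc
POLE2, polymerase epsilon, chr14:49688201-49688230, minus strand: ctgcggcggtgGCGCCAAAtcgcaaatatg
PCNA, the clamp, chr20:5126663-5126692, minus strand: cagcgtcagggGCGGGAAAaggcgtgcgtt
TYMS, nucleotide supply, chr18:657603-657632, plus strand: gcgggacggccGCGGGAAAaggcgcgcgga
HELLS, chromatin, chr10:94545769-94545798, plus strand: gatgacaggatTTTCCCGCgaaggagaagc
CLSPN, checkpoint, chr1:35769965-35769994, minus strand: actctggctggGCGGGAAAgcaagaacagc
The first base of these sites lay between 4 bases (MCM3) and 90 bases (MCM6) before the RefSeq start. A match describes letters in a window and not a bound site. The 20 genes with a site and the 17 without had median ratios of shAPC against shScr of 0.09 and 0.15 on day 3, and on day 7 of -0.09 and -0.23, on the scale defined next.

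Across the 43 genes together, the replication transcripts made up 628 CPM (95% interval 620.5 to 636) in shScr day 3, 779 (769 to 788) in shAPC day 3, 791 (782 to 801) in shScr day 7 and 640.4 (631 to 649.8) in shAPC day 7. The sum was thus higher in shAPC at day 3 and higher in shScr at day 7. The typical gene shifted too, however, with a median log2 ratio, taken where either library reached 20 CPM, of 0.28 for shAPC against shScr at day 3, -0.10 at day 7, 0.05 for day 7 against day 3 in shScr and -0.34 in shAPC. Ratios are therefore given relative to that median, and a relative log2 ratio of 0 means that a gene moved as the typical gene did. The summed replication transcripts had relative log2 ratios of 0.03 (0.01 to 0.06), -0.21 (-0.24 to -0.18), 0.28 (0.26 to 0.31) and 0.05 (0.03 to 0.08) in the same 4 comparisons. Once all genes were allowed for, little of the day 3 difference in the sum was left. Sums of genes grouped by role went both ways at day 3, however, from 0.40 (0.30 to 0.50) for origin licensing to -0.17 (-0.23 to -0.10) for polymerases and primase. The latter sum was mostly POLD2, with 2946 of its 4070 UMIs in shScr and 2599 of 3849 in shAPC. The median over the 8 genes of that group was 0.05, against 0.07 over all genes of at least 1 CPM. In the sum, the shScr day 7 library stood higher than shScr day 3 and shAPC day 7. Intervals here and below are exact and cover counting error only. With 1 library per group no test between groups was possible, the spread between cultures is unknown, and fewer cycling cells and less RNA per cell cannot be told apart in sums.

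**Figure D1:**
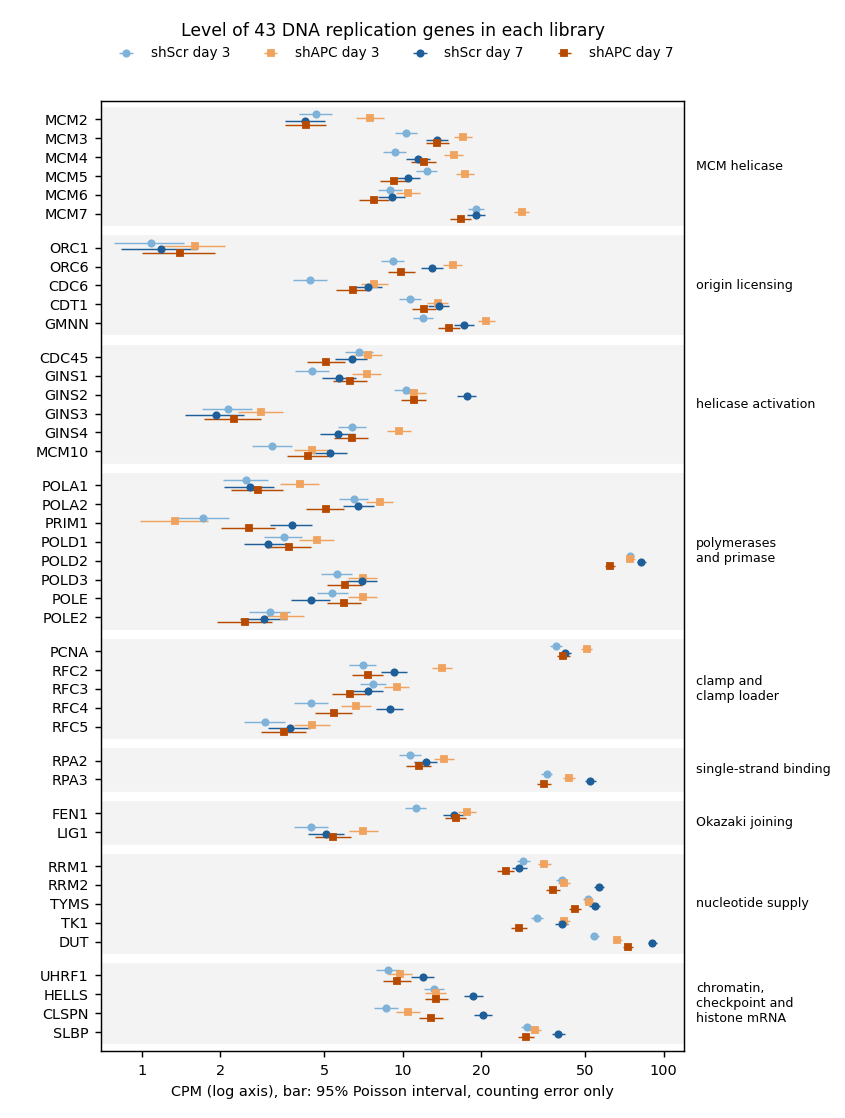
Level of each of the 43 DNA replication genes in the 4 libraries, in CPM on a log axis, with exact Poisson 95% intervals that cover counting error only and genes grouped by role. Levels run from 1.08 CPM (ORC1, shScr day 3) to 90.5 CPM (DUT, shScr day 7), and for GINS2, RFC4, CLSPN, RPA3 and DUT the shScr day 7 point lies to the right of the other 3.

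At day 3, 31 of the 43 genes (72.1%) lay above the all-gene median in shAPC, beside 57.5% of all 12735 genes that reached 1 CPM in either library. Their median relative log2 ratio was 0.12, against 0.07 over those genes. The counting interval lay wholly above 0 for 16 replication genes (37.2%) and wholly below for 6 (13.95%), against 35.2% and 25.3% of all genes. RFC2 and PRIM1 were past 1.5-fold (4.65%), against 18.1% of all genes. Among the 11 replication genes of at least 20 CPM none was past 1.5-fold, against 10.9% of all genes at that level, and their median was 0.00. The share above the median was larger than the background, and the share with an interval above 0 was close to it. The shares with an interval below 0 and past 1.5-fold were smaller than the background.

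At day 7, 28 genes (65.1%) lay below the all-gene median in shAPC, beside 40.8% of all 12566 genes. The median was -0.12 over the replication genes and 0.08 over all. Intervals lay wholly below 0 for 15 (34.9%) against 21.9% of all genes, and wholly above for POLE alone (2.33%) against 33.9%. RFC4 was the only gene past 1.5-fold, where 18.3% of all genes were, and none of the 10 genes of at least 20 CPM was past it, where 9.27% were. The genes of at least 20 CPM had a median of -0.30. The list as a whole thus lay lower than all genes did, although 15 of its members lay above the median. RFC4 alone was past 1.5-fold. Set side by side, the relative ratio was lower at day 7 than at day 3 for 37 of the 43 genes, beside 46.4% of 12345 genes, and the exceptions were GINS3, POLE, POLD1, ORC1, PRIM1 and TYMS. A position above the median at day 3 and below it at day 7 was found for 16 of the 43 genes, a larger share than the 17.4% of all genes. The opposite was found for 0 of the 43, against 19.5% of all genes.

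Within shScr, 30 genes (69.8%) lay above the all-gene median at day 7 relative to day 3, beside 48.6% of all 12310 genes, and the median was 0.26 against -0.01. Intervals were wholly above 0 for 21 (48.8%) against 24.2% of all genes and wholly below for 2, MCM5 and POLE (4.65%), against 26.4%. Past 1.5-fold were 7 genes (16.3%) against 10.8% of all, all of them higher at day 7, and at 20 CPM these were CLSPN and DUT among 10 genes, where 6.87% of all genes passed. Within shAPC the median of the genes of at least 20 CPM was 0.04, and it turned to -0.17 without the mitochondrial limit, -0.16 with a limit of 10%, -0.13 without the 5% of cells with the most UMIs and -0.18 with no minimum level. There 23 of the 43 (53.5%) lay above the median, beside 51.8% of all 12851 genes, with 10 intervals wholly above 0 (23.3%, against 30.0%) and 9 wholly below (20.9%, against 27.4%). PRIM1 and CLSPN were past 1.5-fold higher and RFC2 lower (6.98%, against 19.3%), and 0 of 11 genes of at least 20 CPM, where 14.2% of all genes passed. The shScr comparison shares the shScr day 7 library with the day 7 comparison of shAPC, so both rest on that library. The shift within shScr also rested on the mitochondrial limit, since without it the median of the genes of at least 20 CPM was 0.01 in place of 0.29 and none was past 1.5-fold. The barcodes over that limit held 710 CPM of replication transcripts in shScr day 3 and 993 in shAPC day 3, more than the kept cells, but 523 in shScr day 7 and 481 in shAPC day 7, fewer than the kept cells. The part of these barcodes in the result was not tested beyond that.

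**Figure D2:**
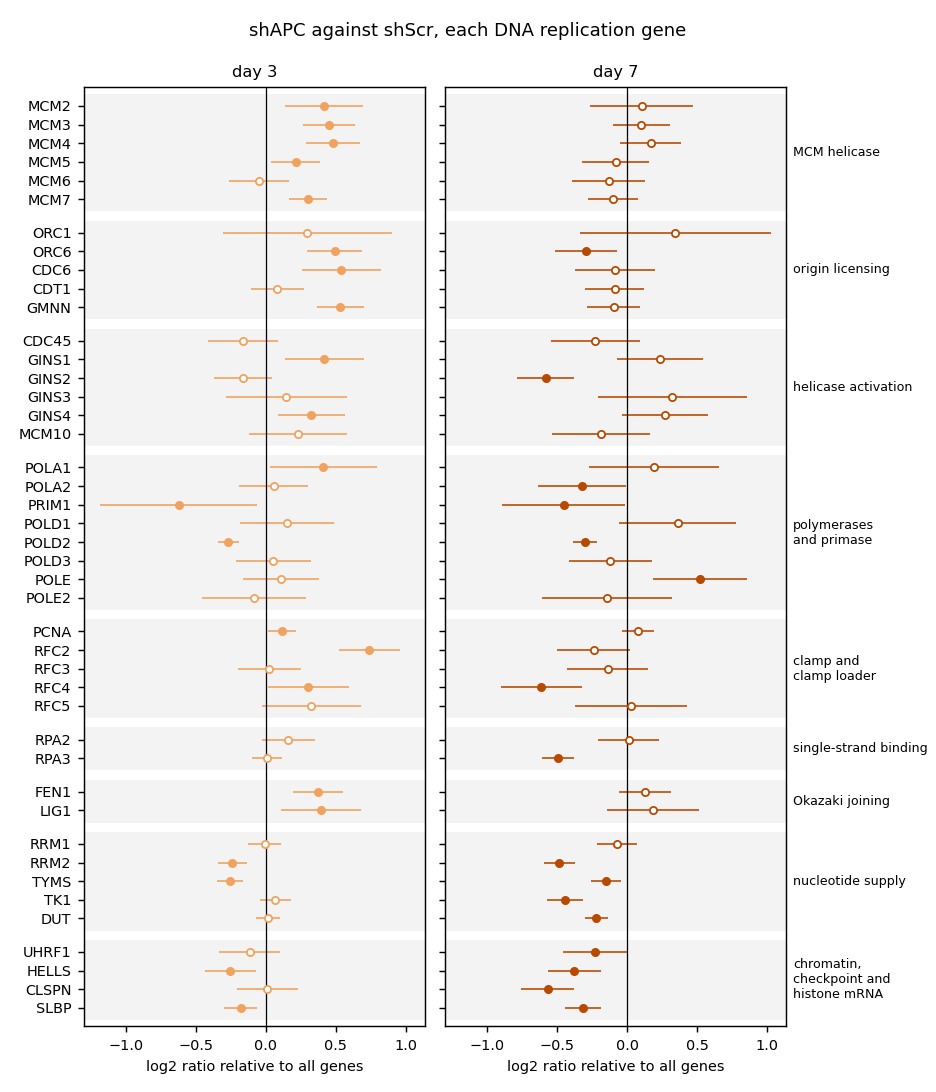
Relative log2 ratio of shAPC against shScr at day 3 (left) and day 7 (right) for each replication gene, with exact conditional 95% intervals that cover counting error only, where 0 is the all-gene median and filled points have intervals that leave it out. At day 3 the MCM and licensing genes other than MCM6 sit to the right of 0, and at day 7 all genes of nucleotide supply and of the chromatin, checkpoint and histone mRNA group sit to its left.

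The MCM helicase is the ring of 6 subunits that unwinds the double helix, and its transcripts summed to 64.7 CPM in shScr day 3, 96.6 in shAPC day 3, 67.8 in shScr day 7 and 63.5 in shAPC day 7. Only the shAPC day 3 library stood out, with a relative log2 ratio of 0.30 (0.23 to 0.38) for the sum at day 3 and of 0.00 (-0.09 to 0.09) at day 7. MCM7 (ENSG00000166508, chromosome 7, 100092233 to 100101940, minus strand, hg38) had 19.1, 28.5, 19.1 and 16.7 CPM, given here and for all genes below as shScr then shAPC at day 3, followed by shScr then shAPC at day 7. Its relative log2 ratio of shAPC against shScr was 0.30 (0.16 to 0.44) on day 3, against -0.10 (-0.28 to 0.08) on day 7. MCM5 had 12.3, 17.3, 10.4 and 9.24 CPM, so that it was lower at day 7 than at day 3 in both arms, by relative log2 ratios of -0.29 (-0.50 to -0.09) in shScr and -0.57 (-0.78 to -0.36) in shAPC. MCM2, MCM3 and MCM4 followed MCM7 at day 3, with relative ratios of 0.41, 0.45 and 0.48 and intervals above 0. MCM6, at 8.97, 10.5, 9.09 and 7.77 CPM, was the subunit that did not, with -0.05 (-0.27 to 0.16). Between the days in shAPC, the intervals of MCM2, MCM5 and MCM7 lay below 0 and those of MCM3, MCM4 and MCM6 included it (0.01, -0.18 to 0.19, for MCM3), so the intervals of MCM3 and MCM5 did not overlap.

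The summed transcripts of the origin licensing group, which includes the inhibitor GMNN as well as loading factors, were higher in shAPC at day 3. The sum was 37.2 CPM in shScr and 59.5 in shAPC, with a relative log2 ratio of 0.40 (0.30 to 0.50). GMNN, which encodes geminin, the inhibitor of CDT1, had 11.96, 20.9, 17.2 and 15.0 CPM. Its relative ratio was 0.53 (0.36 to 0.70) on day 3, against -0.10 (-0.28 to 0.09) on day 7. CDC6, the loader ATPase, had 4.42, 7.78, 7.33 and 6.47 CPM and moved alike, with 0.54 (0.26 to 0.82) and -0.09 (-0.37 to 0.20). For both genes shScr day 3 was the low library, and within shScr they were higher at day 7 by 0.47 (0.29 to 0.65) and 0.68 (0.39 to 0.97). ORC6, a subunit of the origin recognition complex, had 9.15, 15.6, 12.9 and 9.88 CPM, and its ratio changed sides from 0.49 (0.30 to 0.69) at day 3 to -0.29 (-0.52 to -0.07) at day 7. CDT1, at 10.6 to 13.7 CPM, had intervals that included 0 at both days. ORC1, the large subunit, was near the limit of detection with 37 to 56 UMIs per library and 1.08 to 1.60 CPM, so differences of this size were not detectable for it.

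Helicase activation was mixed. GINS2 (ENSG00000131153), a subunit of the GINS complex, which joins MCM and CDC45, had 10.3, 11.1, 17.6 and 11 CPM, and shScr day 7 stood above the other 3 libraries, which did not differ by much. Its relative ratio was -0.16 (-0.37 to 0.04) at day 3, -0.58 (-0.79 to -0.38) at day 7 and 0.73 (0.54 to 0.92) for day 7 against day 3 in shScr. GINS4, another subunit of the same complex, had 6.41, 9.70, 5.64 and 6.36 CPM and ratios of 0.32 (0.08 to 0.56) and 0.27 (-0.04 to 0.58). GINS1 had 0.42 (0.14 to 0.70) at day 3 and 0.24 (-0.07 to 0.55) at day 7, and the interval of GINS3, at 60 to 100 UMIs, included 0 in every comparison. The 4 subunits form 1 complex, and GINS2 was the only member whose interval lay below 0 at day 7. CDC45 had 6.81, 7.35, 6.37 and 5.10 CPM with every interval including 0. MCM10, which helps to fire the helicase, had 3.17, 4.49, 5.25 and 4.32 CPM, with an interval above 0 only within shScr, at 0.68 (0.33 to 1.03).

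Among the polymerases, the most counted gene was POLD2, the accessory subunit of polymerase delta, at 74.0, 74.4, 81.9 and 62.2 CPM. It lay below the all-gene median in shAPC at both days, at -0.27 (-0.35 to -0.19) and -0.30 (-0.39 to -0.21), although its plain log2 ratio at day 3 was 0.01. POLD1, the catalytic subunit of the same enzyme, had 3.49, 4.69, 3.04 and 3.66 CPM and ratios of 0.15 (-0.18 to 0.49) and 0.36 (-0.05 to 0.78), and its exons share 426 bases with another gene of the same strand, so its counts are uncertain. POLD3 lay between these, with ratios of 0.05 and -0.12 and intervals that included 0. PRIM1, the catalytic subunit of primase, had the widest range of the group, at 1.71, 1.34, 3.75 and 2.57 CPM. Both day 7 libraries stood above both day 3 libraries for it, by 1.08 (0.64 to 1.53) in shScr and 1.27 (0.72 to 1.83) in shAPC, from 47 to 117 UMIs per library. These counts are uncertain, since exons of PRIM1 overlap those of NACA on the same strand by 139 bases. POLE, the catalytic subunit of polymerase epsilon, had 5.38, 7.01, 4.45 and 5.98 CPM. It alone among the 43 genes had an interval above 0 in shAPC at day 7, at 0.52 (0.19 to 0.85). Its partner POLE2 had 2.50 to 3.52 CPM and ratios of -0.09 and -0.14. POLA1, the catalytic subunit of polymerase alpha, had 0.41 (0.03 to 0.79) at day 3 and 0.19 (-0.27 to 0.66) at day 7, and POLA2 had 0.06 (-0.19 to 0.30) and -0.32 (-0.64 to -0.01).

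The clamp and its loader were higher in shAPC at day 3 as a sum, at 60.7 CPM in shScr and 85.5 in shAPC, with a relative ratio of 0.22 (0.14 to 0.30), and were at -0.06 (-0.15 to 0.03) at day 7. PCNA, the ring that holds polymerases on DNA, had 38.6, 50.7, 41.8 and 41.2 CPM. Its ratios were small in all 4 comparisons, between 0.04 and 0.12, with an interval above 0 at day 3 and intervals that included it in the others. RFC2 (ENSG00000049541), a small subunit of the clamp loader, had 7.01, 14.2, 9.25 and 7.35 CPM, and the shAPC day 3 library stood far above the others. Its ratio of 0.74 (0.52 to 0.96) at day 3 was the highest of all 43 genes, and at day 7 it was -0.24 (-0.50 to 0.02). RFC4 (ENSG00000163918, chromosome 3, 186789880 to 186807058, minus strand), another subunit of the loader, had 4.45, 6.64, 8.90 and 5.45 CPM. It changed sides from 0.30 (0.01 to 0.59) at day 3 to -0.61 (-0.91 to -0.32) at day 7, and within shScr it was higher at day 7 by 0.95 (0.67 to 1.23). RFC3 and RFC5 had day 3 ratios of 0.03 and 0.32 and day 7 ratios of -0.14 and 0.03, all with intervals that included 0. The highest library was shAPC day 3 for RFC2, RFC3 and RFC5 and shScr day 7 for RFC4.

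RPA binds single-stranded DNA at the fork. RPA3, its smallest subunit, had 35.6, 43.3, 52.3 and 34.7 CPM, with a relative ratio of 0.01 (-0.10 to 0.11) at day 3, -0.49 (-0.61 to -0.38) at day 7 and 0.50 (0.40 to 0.61) for day 7 against day 3 in shScr. RPA2 had 10.7, 14.4, 12.2 and 11.5 CPM and ratios of 0.16 (-0.03 to 0.35) and 0.01 (-0.21 to 0.23). FEN1, the nuclease that trims the flap of an Okazaki fragment, had 11.2, 17.6, 15.7 and 15.99 CPM, and LIG1, the ligase that closes the nick, had 4.45, 7.07, 5.09 and 5.41 CPM. For both, shScr day 3 was the lowest library and shAPC was higher at day 3, by 0.38 (0.20 to 0.55) and 0.39 (0.11 to 0.68). At day 7 the ratios were 0.13 (-0.06 to 0.31) and 0.18 (-0.15 to 0.51). The 49 bases of exon that FEN1 shares with FADS2 on the same strand leave its counts somewhat uncertain.

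Nucleotide supply summed to 208, 236, 269.8 and 209 CPM, and its relative log2 ratio was below 0 in shAPC at both days, at -0.09 (-0.13 to -0.05) and -0.27 (-0.32 to -0.22). At day 3 its plain log2 ratio was 0.19 (0.14 to 0.23), and the relative intervals of 2 of its 5 genes lay below 0. RRM2, the small subunit of ribonucleotide reductase and a classic S phase gene, had 40.6, 41.6, 56.5 and 37.7 CPM. Its relative ratio was -0.24 (-0.34 to -0.14) at day 3, where the plain log2 ratio was 0.04, and -0.49 (-0.60 to -0.38) at day 7. RRM1, the large subunit, had 28.9, 34.8, 27.9 and 24.8 CPM and ratios of -0.01 and -0.07 with intervals that included 0, so the intervals of the 2 subunits did not overlap at either day. TYMS, thymidylate synthase, had 51.1, 51.8, 54.3 and 45.8 CPM and ratios of -0.26 (-0.35 to -0.17) and -0.15 (-0.26 to -0.05), with a plain log2 ratio of 0.02 at day 3. TK1, the salvage kinase for thymidine, had 32.7, 41.5, 40.6 and 27.98 CPM, with 0.07 (-0.04 to 0.18) at day 3 and -0.44 (-0.57 to -0.31) at day 7. DUT, which clears dUTP, had 54.2, 66.4, 90.5 and 72.7 CPM. It was higher at day 7 in both arms, by 0.69 (0.60 to 0.77) in shScr and 0.47 (0.38 to 0.55) in shAPC, and lay below the median in shAPC at day 7, at -0.22 (-0.30 to -0.14).

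All 4 genes for chromatin, the fork checkpoint and histone mRNA had intervals below 0 in shAPC at day 7 and above 0 at day 7 against day 3 in both arms, relative to all genes. In shAPC the plain log2 ratio between the days was 0.29 for CLSPN but 0.01 for HELLS, -0.04 for UHRF1 and -0.11 for SLBP. CLSPN (ENSG00000092853, chromosome 1, 35720218 to 35769978, minus strand), which encodes claspin, the adaptor of the ATR and CHK1 checkpoint at the fork, had 8.62, 10.5, 20.4 and 12.9 CPM. Both day 7 libraries were above both day 3 libraries, by 1.19 (1.00 to 1.38) in shScr, the largest ratio of the 43 genes in that comparison, and by 0.63 (0.42 to 0.84) in shAPC. Its ratio of shAPC against shScr was 0.01 (-0.21 to 0.23) on day 3, against -0.57 (-0.76 to -0.38) on day 7. SLBP, which binds the stem loop of histone mRNAs made in S phase, had 29.98, 32.02, 39.4 and 29.6 CPM and ratios of -0.18 (-0.30 to -0.06) and -0.32 (-0.44 to -0.19), with a plain log2 ratio of 0.10 at day 3. HELLS, a chromatin remodeller, had 13.2, 13.4, 18.6 and 13.4 CPM and ratios of -0.25 (-0.44 to -0.07) and -0.38 (-0.57 to -0.19), with a plain log2 ratio of 0.02 at day 3. UHRF1, which maintains DNA methylation on new strands, had 8.77, 9.79, 11.9 and 9.53 CPM and ratios of -0.12 (-0.34 to 0.10) and -0.23 (-0.46 to -0.00).

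**Figure D3:**
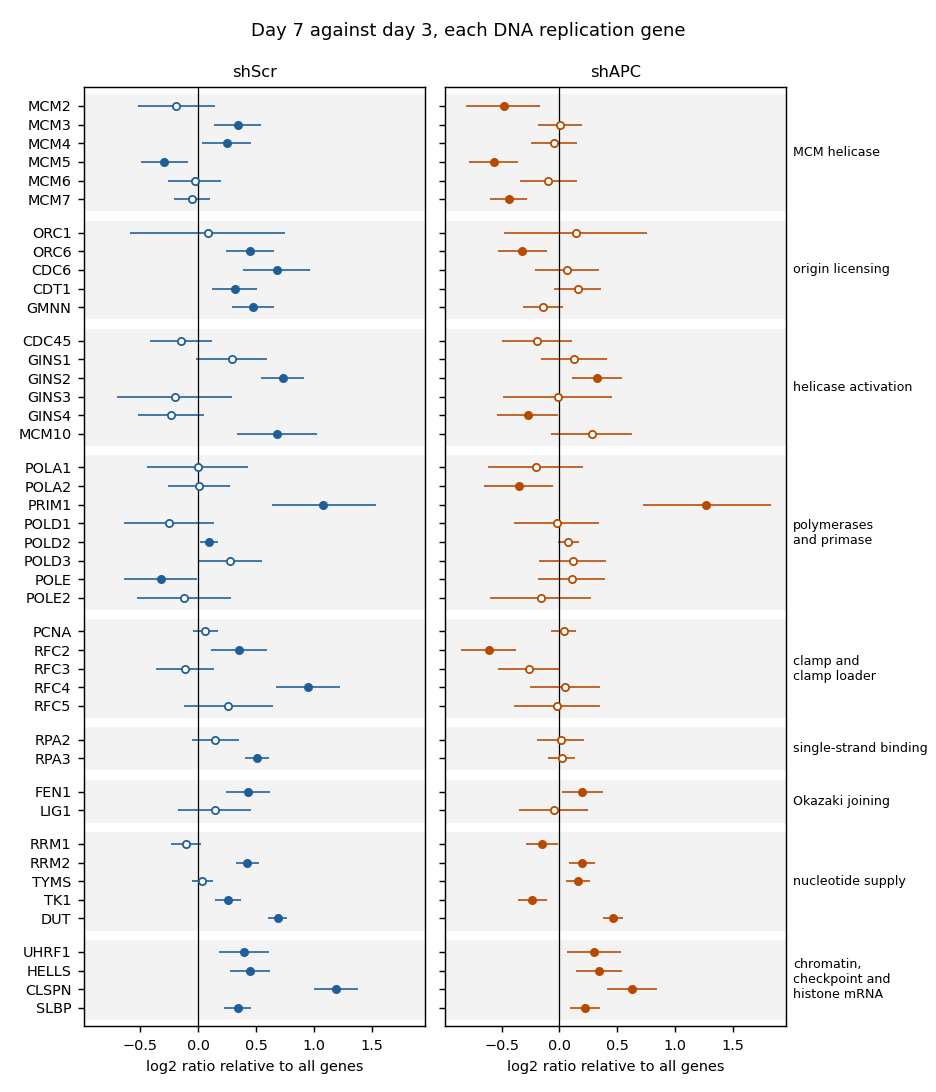
Relative log2 ratio of day 7 against day 3 in shScr (left) and shAPC (right) for each replication gene, with exact conditional 95% intervals that cover counting error only, where 0 is the all-gene median and filled points have intervals that leave it out. CLSPN (1.19) and PRIM1 (1.08) lie farthest right in shScr, PRIM1 (1.27) does so in shAPC, and MCM5 lies left of 0 in both.

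The plain direction of some of these differences depended on the scaling, which moves all genes alike. Without the all-gene median subtracted, the median log2 ratio of the genes of at least 20 CPM was 0.28 for shAPC against shScr at day 3 in place of 0.00, and -0.29 for day 7 against day 3 in shAPC in place of 0.04. With TMM factors the plain median at day 3 was -0.10, and the all-gene median moved with it, from 0.28 to -0.13. Relative to all genes the median at day 3 was 0.00 with total UMIs and 0.02 with TMM factors or DESeq2 size factors. The day 7 difference kept its sign under total UMIs, TMM factors and DESeq2 size factors, with plain medians of -0.39, -0.40 and -0.41.

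Single cells were then compared at equal depth, by thinning each kept cell of at least 2000 UMIs to 2000 UMIs, which left 899, 673, 1198 and 1087 cells and left out 217, 115, 1402 and 391. The mean number of replication UMIs per thinned cell was 1.39, 1.72, 1.73 and 1.40, with SDs over cells of 1.86, 2.04, 2.08 and 1.83. The difference of shAPC from shScr was 0.32 UMIs at day 3 and -0.33 at day 7, where cells are not replicates and no test was made. The cells were very unequal. No replication UMI was seen in 41.2% (37.9 to 44.5) of thinned cells of shScr day 3, 32.4% (28.9 to 36.1) of shAPC day 3, 33.9% (31.2 to 36.6) of shScr day 7 and 39.7% (36.7 to 42.6) of shAPC day 7. Unthinned, these shares were 11.1%, 7.74%, 27.8% and 15.8%, so that the order among libraries followed depth. Cells with 5 or more replication UMIs made up 7.68% (6.02 to 9.61), 9.21% (7.14 to 11.7), 10.4% (8.76 to 12.3) and 7.54% (6.04 to 9.28). A gene such as POLD2 was seen in 14.02%, 16.5%, 13.9% and 10.9% of thinned cells, whereas ORC1 was seen in 0.22% to 0.30%.

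These cells overlapped with those that expressed mitotic genes. A cell was placed in the mitotic class where it held at least 2 UMIs of 26 mitotic genes, none of which is a replication gene, and the class made up 19.1% (16.6 to 21.9), 21.2% (18.2 to 24.5), 25.1% (22.7 to 27.7) and 14.8% (12.8 to 17.1) of thinned cells. It held 50.3%, 49.5%, 54.6% and 39.3% of all replication UMIs. A cell of the class had a mean of 3.66 (3.38 to 3.96), 4.00 (3.68 to 4.34), 3.76 (3.54 to 3.98) and 3.71 (3.42 to 4.02) replication UMIs, and a cell outside it 0.86 (0.79 to 0.93), 1.10 (1.01 to 1.19), 1.047 (0.98 to 1.12) and 0.998 (0.93 to 1.064). Within the class the means of the libraries ran from 3.66 to 4.00, with overlapping intervals. At day 7 the difference of shAPC from shScr was -0.04 UMIs inside the class and -0.05 outside it, against -0.33 over all cells. With the class set at 1 or 4 mitotic UMIs, or without TOP2A, it ran from -0.13 to 0.06 inside. Outside the class it ran from -0.18 to -0.07 under these settings, the largest with at least 4 mitotic UMIs. The share of the class at day 7 was 14.8% in shAPC and 25.1% in shScr, and its part in the difference was not tested. At day 3 the difference was 0.34 inside and 0.24 outside, with shares of 21.2% and 19.1%. Outside the class, shScr day 3 was the low library. The class was set by a number of UMIs and not by a cell type, and doublets were not called, so cells of the class may include some.

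**Figure D4:**
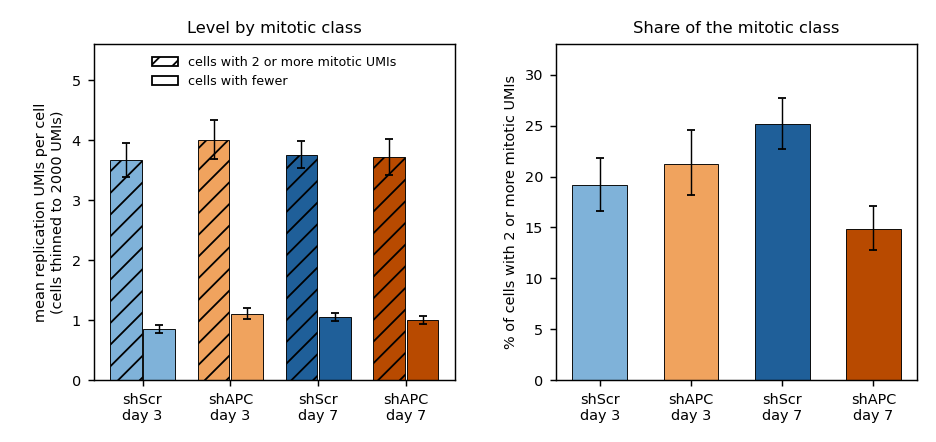
Mean number of replication UMIs per cell thinned to 2000 UMIs (left), in cells with at least 2 UMIs of the mitotic list (hatched) and in the others (plain), with exact Poisson 95% intervals, and the share of cells in that mitotic class (right, percent, exact binomial 95% intervals). Means are 3.66 to 4.00 in the class and 0.86 to 1.10 outside it, and the share of the class is lowest in shAPC day 7, at 14.8%.

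Each replication gene had more CPM in cells of the mitotic class than in the others, in all 4 libraries, but by very different folds. These folds were not taken over all genes, so how usual such a direction or fold is in these cells was not measured. For ORC1 in shAPC day 7, with 10 UMIs in the class, the log2 ratio was 1.024 (-0.17 to 2.10), an interval that included 0. RRM2 had a median fold of 10.3 over the 4 libraries (7.34 to 12.6), CLSPN 9.04 (8.09 to 13.9) and MCM10 8.98 (4.77 to 11.5). Low folds were found for POLD2 at 1.77 (1.43 to 1.90), RPA2 at 1.86 (1.72 to 2.12), SLBP at 1.93 (1.71 to 2.16), DUT at 2.24 (1.87 to 2.48) and RPA3 at 2.65 (2.06 to 3.38). The MCM genes lay between, from 3.30 (MCM6) to 5.68 (MCM7). These folds are medians over libraries of counts in cells chosen by other genes, and the ranges cover the 4 libraries. Over the 43 genes, the log2 fold in the day 3 libraries and the day 7 ratio had Pearson's r of -0.03 and Spearman's rho of -0.09, and the log2 fold in the day 7 libraries and the day 3 ratio had 0.06 and 0.04. These are across genes of the same libraries, which are not independent replicates.

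**Figure D5:**
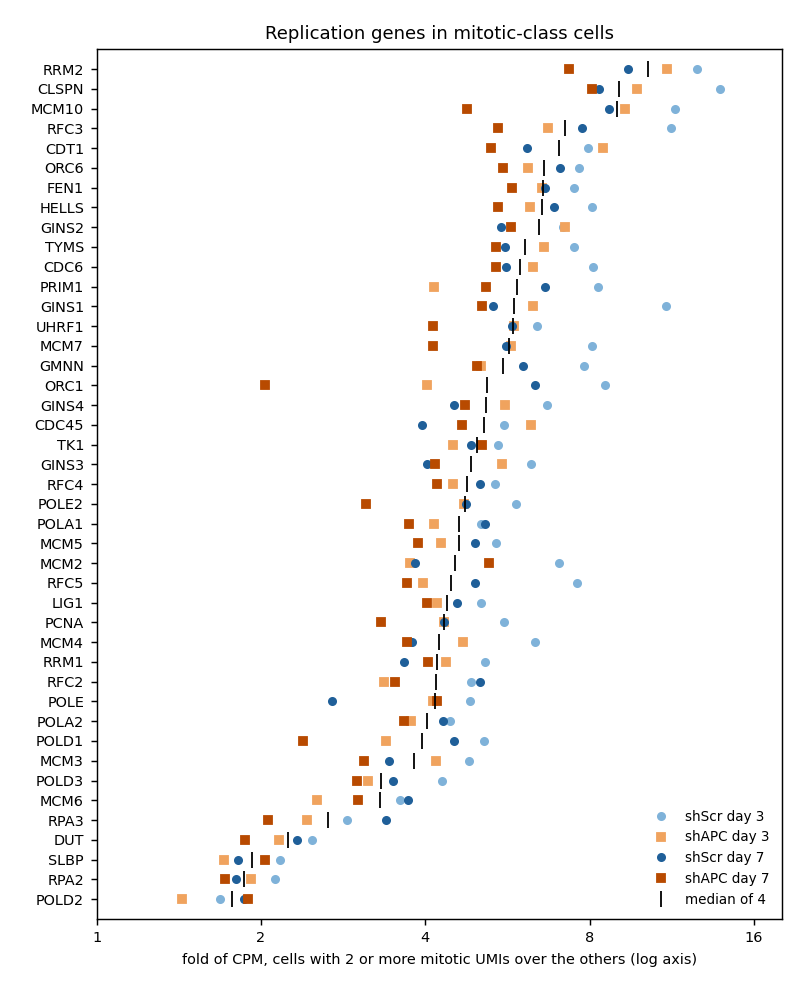
Fold of CPM in cells of the mitotic class over the other cells for each replication gene in each library (points, log axis), with the median of the 4 libraries as a bar. RRM2 (10.3) and CLSPN (9.04) are at the top and POLD2 (1.77) is at the bottom, and in most genes the shScr day 3 point is the farthest right.

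Other genes of the same pathways were set beside the 43. Of 35 further replication genes, 28 lay above the all-gene median in shAPC at day 3, where 57.5% of all genes did, and 17 lay below it at day 7, where 40.8% of all genes did. Their medians were 0.26 and 0.04, against 0.07 and 0.08 over all genes, and their summed relative log2 ratio at day 7 was -0.07 (-0.10 to -0.05). SAMHD1, which breaks down nucleotides, had 13.9, 28.9, 13.4 and 9.56 CPM and a ratio of 0.78 (0.63 to 0.93) at day 3 and -0.39 (-0.61 to -0.16) at day 7. RNASEH2B, of the enzyme that removes ribonucleotides, was higher at day 7 in both arms, by 0.61 (0.46 to 0.77) and 0.60 (0.44 to 0.76), as DUT was. The p53-linked subunit RRM2B had 29.8, 43.3, 33.8 and 44.2 CPM, and ratios of 0.26 (0.15 to 0.37) and 0.48 (0.36 to 0.60) in shAPC, on the other side of 0 from RRM2. Of 12 regulators of the G1/S step with at least 40 UMIs, 7 lay above the median at day 3, a share close to the 57.5% of all genes, and 6 lay below it at day 7, beside 40.8% of all genes. E2F7, a repressor among the E2F factors, had 5.35, 24.8, 8.71 and 10.6 CPM, with ratios of 1.93 (1.72 to 2.16) and 0.38 (0.13 to 0.62). CHEK1, the kinase that claspin serves, was below 0 at both days, at -0.71 (-0.88 to -0.54) and -0.48 (-0.67 to -0.30).

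Mitotic genes were set beside them as well. All 26 mitotic genes lay below the all-gene median in shAPC at day 7, where 40.8% of all genes did, and 15 were past 1.5-fold, where 18.3% of all genes were, with a median of -0.59. At day 3 the median was 0.07, the same as over all genes, and 15 lay above and 11 below, a share close to the 57.5% of all genes that lay above. CDC20, the activator of the anaphase complex, had 24.4, 31.99, 36.7 and 15.0 CPM and a day 7 ratio of -1.20 (-1.36 to -1.03), and CCNB1, a mitotic cyclin, had -0.99 (-1.15 to -0.84). TOP2A fell between the days in both arms, from 129 to 60.5 CPM in shScr and from 149 to 50.02 CPM in shAPC, whereas the other 25 mitotic genes lay above the median in shScr. Of the 6 replication-dependent histone genes only HIST1H4C reached 20 CPM, at 158, 133, 296 and 256 CPM. It was higher at day 7 in both arms, by relative log2 ratios of 0.86 (0.81 to 0.90) and 1.28 (1.23 to 1.34), and by plain ones of 0.91 and 0.95. The relative log2 ratio of HIST1H4C in shAPC against shScr was -0.52 at day 3 and -0.11 at day 7. The histone genes with at least 40 UMIs did not move alike. At day 3 there were 2, at -0.52 and 1.24, and at day 7 there were 3, from -0.85 to 0.23.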

How the data were processed

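Single-cell 3′ libraries of HCEC 1CT cells were made with 10x Genomics reagents. The authors deposited raw UMI counts per gene and cell barcode, from Cell Ranger (3.0.2 or 3.0.0 per the file headers; the submitters' notes give 3.0.2, and STAR) on GRCh38. The TMM, ComBat and imputation steps of the study were not applied. Kept cells had at least 200 genes, 500 UMIs and under 5% of UMIs from 13 mitochondrial genes. Counts were summed per library and divided by total UMIs (CPM). No doublet caller was run.

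Ratios for single genes are of CPM, with exact conditional 95% intervals. Medians and counts at 20 CPM used log2(CPM + 1), which understates the change of low genes. All 4 comparisons are between single libraries, so there is no replicate check and no p-value, and intervals cover counting error only. Cells were thinned to 2000 UMIs with seed 1. Promoters came from RefSeq (GRCh38.p14), and coordinates of genes and exon overlaps from the GENCODE annotation of hg38. Alternatives used another scaling, filter, level or pseudocount, and those at 1 CPM and the mitotic class without TOP2A were chosen after seeing the data. Members and lists were chosen with earlier results of these data known. Full values were given for the member with the most UMIs and that with the widest range in each role, and for the 5 with the largest ratio at 20 CPM in each comparison. Other genes named beyond this, and beyond the 3 with the largest ratio in each further list, were chosen after their values were seen. Scripts were tested on simulated data. Python 3.11.15, NumPy 2.4.6, SciPy 1.17.1, pandas 2.3.3, matplotlib 3.10.9, R 4.3.3, edgeR 4.0.16 (TMM factors) and DESeq2 1.42.0 (size factors) were used.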

Additional observations from a re-analysis of the deposited data

Results flagged for a closer look

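The relative log2 ratio of shAPC against shScr had intervals on opposite sides of 0 at the 2 days for ORC6 and RFC4. For ORC6 it was 0.49 at day 3 and -0.29 at day 7, a difference of -0.79. For RFC4 it was 0.30 at day 3 and -0.61 at day 7, a difference of -0.92. With 1 library per group these differences were not tested.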

How the results depend on the processing

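Values are for members of at least 20 CPM unless another level is named, and the causes of the shifts were not tested. At day 3 the median for shAPC against shScr was 0.00, and 0.19 with no minimum level and 0.28 as a plain log2 ratio. The count past 1.5-fold was 0 there, and 2 with no minimum, 1 with totals without mitochondrial and ribosomal protein genes, 1 as a plain ratio, 1 at 1 CPM and 2 at 1 CPM with a pseudocount of 0.1 CPM. At day 7 the median was -0.30 and -0.17 at 1 CPM. The count was 0, and 4 with no minimum, 1 with no mitochondrial limit, with a limit of 10%, with all barcodes, without the 5% of cells with the most UMIs or as a plain ratio, 2 as a mean over cells, and 3 at 1 CPM with either pseudocount. Within shScr the median was 0.29, and 0.0088 with no mitochondrial limit, 0.0089 with all barcodes and 0.029 with a limit of 10%. The count was 2, and 0 under those 3 settings, 6 with no minimum, 1 in cells of at least 2000 UMIs or at 2-fold, 5 at 1 CPM and 7 with a pseudocount of 0.1 CPM. Within shAPC the median was 0.04, and -0.18 with no minimum, -0.17 with no mitochondrial limit or all barcodes, -0.16 with a limit of 10%, -0.13 without the 5% of cells with the most UMIs and -0.29 as a plain ratio. The count was 0, and 5 with no minimum, 1 without mitochondrial and ribosomal protein genes, as a plain ratio or at 1 CPM, and 4 with a pseudocount of 0.1 CPM. The day 7 difference in thinned cells was -0.33 and -0.46 with no thinning, and outside the mitotic class -0.05 and -0.18 with a class of at least 4 UMIs. Of 329 values for 20 results on single members, 282 moved by less than the half-width of their interval and 47 moved by more. No paired analysis was possible because each group has 1 library.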
